A study of Mus musculus with 3 samples.

Results

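The 423 widest peaks of a ChIP-seq list for the nucleoporin Seh1 are described here. They were chosen by their measured width: each spanned 500 bp or more and shared no base with a peak of the IgG control list. The Seh1 list held 16113 peaks, so the wide peaks made up 2.63% of it, and 5.23% of its total peak length. Of 439 peaks of 500 bp or more, 16 (3.64%) overlapped an IgG peak and were left out. The reference group was the 4375 Seh1 peaks of the minimum width in the list, 243 bp.

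The samples were primary neural stem cells from the cortex of wild-type newborn (P0) mice, kept proliferating with EGF and bFGF. There were 3 libraries, 1 per group: an immunoprecipitation with a Seh1 antibody, one with IgG, which has no chromatin target, and an input library that was not precipitated and whose own values were not used. All groups shared genotype, tissue and growth medium, and no treatment was compared. With 1 library per group no value has a replicate error, and the labels do not say how many cultures or animals were used. Peak lists hold no expression values, so the labelled cell type could not be checked against marker genes.

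Seh1 is a subunit of the Nup107-160 complex, the scaffold of the nuclear pore, and also belongs to GATOR2, which acts on mTORC1. Some nucleoporins contact chromatin at the nuclear envelope or in the nucleoplasm, and a ChIP-seq peak marks where the precipitated DNA exceeded the background set by a peak caller. The width of a peak depends on the extent of the enriched DNA, on its strength and on the settings of the caller. The deposited score was 0 for every peak, so width was the only graded quantity, and read depth is unknown.

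Widths among the 423 peaks had a median of 559 bp and quartiles of 528 and 618 bp. Most were just above the threshold: 294 (69.5%) measured 500 to 599 bp, 88 measured 600 to 699 bp, 27 measured 700 to 799 bp, 9 measured 800 to 999 bp and 5 measured 1000 bp or more. At the threshold itself, 6 members measured exactly 500 bp, among them peaks in introns of Kif16b and Sh3gl3, at the start of Gm13539 and nearest to Sp110. Just below it, 4 peaks without IgG overlap measured 499 bp, in an intron of Tuft1, in a 3′ UTR of Aff3 and in intergenic sequence nearest to Ing2 and Chordc1. In the IgG list 306 of 5314 peaks (5.76%) reached 500 bp, against 2.72% of the Seh1 list before IgG overlaps were removed.

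**Figure D1:**
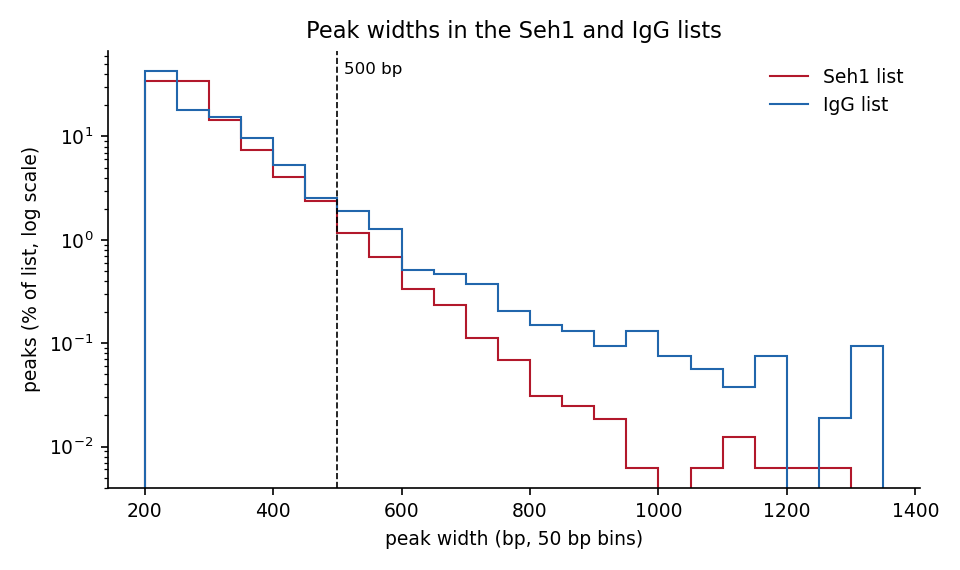
Peak widths in bins of 50 bp (x axis, bp) as a percentage of each list (y axis, log scale) for the Seh1 and the IgG library, 1 library each; the dashed line marks 500 bp. Both lists fall off steeply, and 5.76% of IgG and 2.72% of Seh1 peaks reach 500 bp. One IgG peak, of 2207 bp, and one Seh1 peak that overlaps IgG, of 2002 bp, lie among those beyond the range drawn.

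The members lay in 339 bins of 1 Mb, and the authors' annotation gave 421 of them a nearest gene, 391 genes in all. By position, 235 (55.6%) were intergenic, 144 intronic and 23 in the exon class, which leaves out UTRs. A further 7 were in the promoter class, 6 at a transcription termination site (TTS), 4 in a 3′ UTR, 1 in a 5′ UTR and 1 in a non-coding exon, and 2 had no annotation. For 186 members the annotation named a transcript that the peak lay in or at. For 57 of these the gene of that transcript, the host, differed from the gene of the nearest start site. Members in a transcript are mostly named below by the host, and the nearest gene is given only for some. Among those named by the host alone, the nearest gene was Tmem211 for Sgsm1, Mir6393 for Tafa5 and Mir3086 for Hspa12a. It was Lamp5 for Pak7, Galnt11 for Kmt2c, Ccdc138 for Ranbp2 and Tm6sf2 for Sugp1. A peak is called near a gene when the start site of that gene was its nearest one, at any distance. Among the members this distance reached 1563 kb. All coordinates are mm10 and 1-based.

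Wide peaks near a transcription start site (TSS) are taken first. The centres of 16 members (3.78%, 95% exact binomial interval 2.18 to 6.07%) lay within 1 kb of an annotated TSS. Promoter sequence was available for some of these from RefSeq (GRCm38.p6, the assembly of mm10), in windows of 250 bases before to 50 after a start. Windows of 5 genes are printed, chosen after their values were seen: they belong to the 5 widest peaks that overlapped a window of their own nearest gene. Bases inside the peak are in capitals, 5′ to 3′ on the strand of the gene. Gm21190 and Speer4c, from the Speer gene cluster on chromosome 5, carried peaks of 1296 and 729 bp (chr5:15528773-15530068 and chr5:15713892-15714620), and both windows lay wholly inside them. Lao1, which encodes an L-amino acid oxidase, had a peak of 718 bp (chr4:118961691-118962408) over its whole window. Ugt1a1, which encodes the enzyme that conjugates bilirubin, had a peak of 722 bp (chr1:88211832-88212553) in exon 1 of 5, and 177 bases of its window lay inside. The window of Gm21119 on chromosome 8 had 274 bases inside a peak of 596 bp (chr8:20614703-20615298). The windows span chr5:15529173-15529472 (Gm21190) and chr5:15714222-15714521 (Speer4c) on the minus strand, and chr4:118961717-118962016 (Lao1), chr1:88211709-88212008 (Ugt1a1) and chr8:20614677-20614976 (Gm21119) on the plus strand.
Gm21190: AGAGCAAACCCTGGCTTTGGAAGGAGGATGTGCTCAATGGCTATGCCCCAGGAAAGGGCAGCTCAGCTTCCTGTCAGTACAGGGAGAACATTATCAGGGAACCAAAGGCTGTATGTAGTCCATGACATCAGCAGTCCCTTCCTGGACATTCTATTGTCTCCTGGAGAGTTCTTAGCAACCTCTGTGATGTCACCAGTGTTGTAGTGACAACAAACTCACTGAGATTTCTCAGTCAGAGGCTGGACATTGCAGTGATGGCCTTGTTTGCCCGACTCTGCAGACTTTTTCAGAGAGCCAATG
Speer4c: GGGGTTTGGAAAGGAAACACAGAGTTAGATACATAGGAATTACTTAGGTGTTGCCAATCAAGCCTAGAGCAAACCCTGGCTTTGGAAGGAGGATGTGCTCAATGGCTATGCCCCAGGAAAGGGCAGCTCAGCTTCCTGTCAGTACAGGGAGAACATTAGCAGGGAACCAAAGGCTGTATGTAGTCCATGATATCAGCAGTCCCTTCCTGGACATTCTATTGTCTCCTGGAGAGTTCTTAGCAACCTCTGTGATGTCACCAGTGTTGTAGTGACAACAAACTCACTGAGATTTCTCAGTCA
Lao1: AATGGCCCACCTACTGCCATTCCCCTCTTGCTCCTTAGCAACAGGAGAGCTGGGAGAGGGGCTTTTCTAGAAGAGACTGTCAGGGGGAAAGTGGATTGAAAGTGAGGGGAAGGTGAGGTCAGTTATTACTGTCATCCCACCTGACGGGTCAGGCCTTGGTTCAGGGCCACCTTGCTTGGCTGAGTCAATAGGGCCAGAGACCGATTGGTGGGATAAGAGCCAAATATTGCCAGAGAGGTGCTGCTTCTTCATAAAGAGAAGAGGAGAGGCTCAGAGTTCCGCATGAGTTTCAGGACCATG
Ugt1a1: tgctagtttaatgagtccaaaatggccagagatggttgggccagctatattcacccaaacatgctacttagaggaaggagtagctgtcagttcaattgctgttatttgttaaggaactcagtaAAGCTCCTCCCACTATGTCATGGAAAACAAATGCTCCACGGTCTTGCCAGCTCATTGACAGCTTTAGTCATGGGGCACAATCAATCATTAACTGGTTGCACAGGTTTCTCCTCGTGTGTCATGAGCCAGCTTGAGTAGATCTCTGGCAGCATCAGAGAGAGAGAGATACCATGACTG
Gm21119: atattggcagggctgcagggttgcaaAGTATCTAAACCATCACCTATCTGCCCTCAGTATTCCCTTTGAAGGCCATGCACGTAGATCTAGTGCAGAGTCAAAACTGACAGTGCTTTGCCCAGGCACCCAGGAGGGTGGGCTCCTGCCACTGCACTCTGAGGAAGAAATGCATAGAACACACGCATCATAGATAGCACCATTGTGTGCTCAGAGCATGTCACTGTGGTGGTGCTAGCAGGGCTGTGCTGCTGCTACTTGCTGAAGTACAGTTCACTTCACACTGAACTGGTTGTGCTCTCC

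The first pair of windows is one sequence shifted: bases 1 to 235 of the Gm21190 window aligned to bases 66 to 300 of the Speer4c window with 233 of 235 bases identical (99.1%) and 0 gaps. The Gm21119 window was identical over all 300 bases to that of 4930467E23Rik, which also lay wholly inside a wide peak (548 bp, chr8:19729118-19729665). How reads that map to several places were treated is not stated in the labels or headers, and for such copies the peak cannot be assigned to one gene. In all, 15 members overlapped 16 promoter windows. Among minimum-width peaks, which are shorter, 37 of 4375 (0.846%) overlapped a window, against 3.55% of the wide peaks. The 16 windows had a median of 2 CpG dinucleotides (highest 8, in Defb21) and a median GC content of 50.5%; the 41 windows met by minimum-width peaks had medians of 4 CpG and 51.0%, and the 32851 windows of the RefSeq table had medians of 7 CpG and 52.7%. Windows met by either group of Seh1 peaks thus had fewer CpG at the median than the table as a whole, and none of these differences was tested. On either strand the CCAAT box (CCAAT) was in 10 of the 16 windows, in 19 of the 41 windows met by minimum-width peaks and in 37.4% of all windows. The 10 count copied matches more than once, in the pair Gm21119 and 4930467E23Rik and in a pair of overlapping windows of Gm21154. In Gm21190 and Speer4c the matches lay outside the 235 shared bases, at different sites. The GC box (GGGCGG) was in 1, that of Pilrb1, in 1 of the 41 and in 35.7% of all windows. The TATA box (TATAAA) was in 1 window, that of Gm6943, in 4 of the 41 and in 13.6% of all windows. Motifs were counted over whole windows, including bases outside the peak. The GC box of Pilrb1, the TATA box of Gm6943 and the CCAAT of F7, Gm5600, Gm21154 and Gm21119 lay outside it. These motifs do not overlap one another, and a match of letters shows no bound factor. Of the 16 windows, 6 belonged to genes other than the nearest gene in the authors' annotation. An example is Gm46074, whose window lay wholly in a peak of 840 bp (chr8:20649062-20649901) that the authors gave to Gm21119, 34.6 kb away.

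The other members within 1 kb of a TSS belonged to genes with diverse known functions. Neb, which encodes the muscle protein nebulin, had a peak of 656 bp centred 70 bp upstream of its TSS. Saa1, which encodes the acute-phase protein serum amyloid A1, had one of 584 bp at 406 bp downstream. F7, which encodes coagulation factor VII, had one of 524 bp at 279 bp, and Pilrb1, a paired immunoglobulin-like receptor gene, one of 547 bp at 188 bp. Acp5, which encodes tartrate-resistant acid phosphatase, had one of 506 bp at 693 bp, and Defb21, a beta-defensin gene, one of 507 bp at 736 bp. The peaks of Foxn3, a forkhead factor gene (510 bp), Epb41l2, a gene of the protein 4.1 family (577 bp), and Lypd10 (551 bp) lay 838, 987 and 999 bp downstream. The last was Gm13539, a non-coding gene, with a peak of 500 bp centred 34 bp upstream.

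Minimum-width peaks lay within 1 kb of a TSS in 59 of 4375 cases (1.35%, interval 1.03 to 1.74%), so the share among wide peaks was 2.80 times as high (95% interval 1.63 to 4.83). The difference passed Fisher's exact test (two-sided) with a p adjusted by the Benjamini-Hochberg method over 32 shares of 0.00348. Each such p describes 1 list, and neighbouring peaks are not independent, so it is too small. Of the 16 members, 4 (Gm21190, Speer4c, Gm21119 and 4930467E23Rik) lay in the 14 bins of 1 Mb that held 20 or more IgG peaks. Without those bins the shares were 3.08 and 1.29%, a ratio of 2.38 (1.29 to 4.40) that did not pass Fisher's exact test (adjusted p = 0.0618). In the IgG list 1.96% of peaks of 500 bp or more and 0.545% of those of its minimum width (236 bp) lay within 1 kb of a TSS, a ratio of 3.60 (1.34 to 9.67, Fisher's exact test, adjusted p = 0.0551). The ratios of the lists were not tested against each other. Against all 15630 narrower Seh1 peaks without IgG overlap the ratio was 2.02 (Fisher's exact test, adjusted p = 0.0543). Within 10 kb lay 21.3% of wide and 16.5% of minimum-width peaks (Fisher's exact test, adjusted p = 0.051). Beyond 100 kb lay 25.3 and 27.1% (Fisher's exact test, adjusted p = 0.694). The median distance was 35.6 kb (quartiles 11.8 and 101 kb) for wide peaks and 40.8 kb (15.7 and 110 kb) for minimum-width peaks. Between 1 and 5 kb lay 34 wide peaks (8.04%) and 5.01% of the minimum-width peaks, and between 5 and 10 kb 9.46 and 10.1%. The median distances and the shares beyond 10 kb thus lay close together, and the gap between the groups was in the nearest 5 kb.

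**Figure D2:**
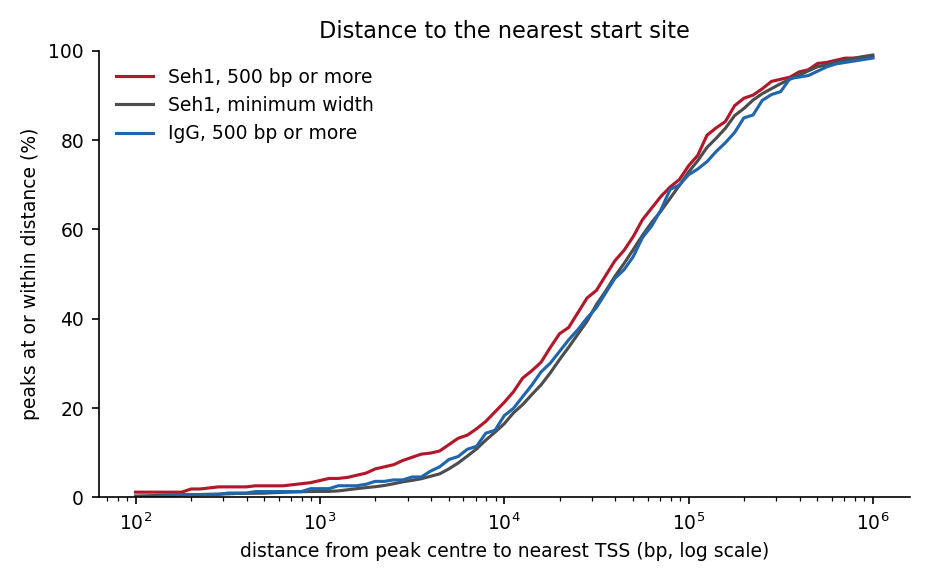
Cumulative share of peaks (y axis, %) by distance from peak centre to the nearest annotated TSS (x axis, bp, log scale) for wide Seh1, minimum-width Seh1 and wide IgG peaks. Within 10 kb the curves reach 21.3% for wide Seh1, 16.5% for minimum-width Seh1 and 18.3% for wide IgG peaks. In the same order they reach 74.2, 72.8 and 72.2% at 100 kb and 87.7, 85.5 and 81.7% at 177828 bp. At 354813 bp they reach 94.1, 93.6 and 93.8%.

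The 20 widest peaks ranged from 774 to 1296 bp. After the Gm21190 peak the widest was intergenic, 1225 bp on chromosome 8 (chr8:20302641-20303865), nearest to 6820431F20Rik. The third covered 1160 bp of chromosome 3 (chr3:29979619-29980778) and was annotated to exon 8 of 16 of Mecom, which encodes a zinc-finger transcription factor of blood stem cells. The fourth, 1121 bp (chr8:20564841-20565961), was intergenic near Gm21119. The fifth, 1114 bp (chr5:113244031-113245144), lay in the 3′ UTR in exon 16 of 16 of Sgsm1, a modulator of small G proteins. Of these 5 peaks, 3 had an IgG peak within 10 kb, and those at Mecom and Sgsm1 had none within 800 kb.

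Among the next widest, a peak of 925 bp lay in intron 3 of 3 of Tafa5, which encodes a secreted chemokine-like protein. Rab43, a small GTPase of the Golgi, had 894 bp in intron 1 of 2. Intergenic peaks of 861 and 816 bp lay 160 kb upstream of Ajap1, an adherens junction gene, and 124 kb upstream of the cell adhesion gene Nectin1. A peak of 819 bp was in intron 2 of 12 of Hspa12a, of the Hsp70 family. One of 794 bp lay 35.8 kb upstream of Cit, which encodes citron kinase, needed for cytokinesis of neural progenitors. One of 783 bp lay 137 kb downstream of the start of Dicer1, the ribonuclease that matures microRNAs, and a second of 566 bp lay 5.56 kb upstream of it. Urb1, a ribosome biogenesis gene, had 781 bp in intron 14 of 38. The Kmt2a peak among the 20 is given with the exons. The remaining peaks of the 20 were nearest to Gm17019 (884 bp, 28.7 kb away), Gm20877 on chromosome Y (850 bp, 294 kb) and Gm21119 (840 bp, 34.6 kb). Others were nearest to 4930591A17Rik (825 bp, 204 kb) and 6820431F20Rik (775 and 774 bp, 159 and 180 kb). Of the 20 widest peaks, 7 lay in the bins dense in IgG peaks.

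Peaks classed as exonic made up 23 of 423 (5.44%) among wide and 192 of 4375 (4.39%) among minimum-width peaks, a ratio of 1.24 (95% interval 0.813 to 1.89). This difference did not pass Fisher's exact test (adjusted p = 0.545), and its interval reaches from a lower to a much higher share. The 23 peaks lay in 23 different transcripts, 14 of them (60.9%) in an internal exon, 5 in the last, 2 in the first and 2 in a single-exon gene. Among the minimum-width exon peaks 75.0% were internal. None of the 23 was in a bin dense in IgG peaks.

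Kmt2a, a histone H3 lysine methyltransferase, had a peak of 799 bp in exon 27 of 36 (chr9:44819481-44820279), although its nearest TSS was that of Ttc36. Its relative Kmt2c had one of 547 bp in exon 52 of 59 (chr5:25284156-25284702). Ranbp2, a large nucleoporin of the cytoplasmic filaments of the pore, had one of 595 bp in exon 20 of 29 (chr10:58479800-58480394), with an IgG peak 5.82 kb away. Sugp1, a splicing factor gene, had one of 580 bp in exon 11 of 15, and Rbak, a KRAB zinc-finger repressor gene, one of 597 bp in exon 5 of 5.

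Among the other hosts, Pak7, a p21-activated kinase gene, had 726 bp in exon 6 of 11 (chr2:136100800-136101525). Muc6, which encodes a gastric mucin, had 707 bp in exon 31 of 33 (chr7:141638613-141639319), and Fgfbp1, which encodes a binding protein of fibroblast growth factors, 725 bp in exon 3 of 3. Ston1, an endocytic adaptor gene, had 629 bp in exon 2 of 4, and Ces5a, a carboxylesterase gene, 609 bp in exon 12 of 13. Magi2, a synaptic scaffold gene, had 507 bp in exon 9 of 21. H2-Eb1, an MHC class II gene, had 505 bp in exon 6 of 6. Hspa1b, the inducible Hsp70 gene, had 522 bp in its single exon (chr17:34957913-34958434), and since Hspa1a is a near-identical neighbour this assignment is uncertain.

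The remaining classes were small. Introns held 34.0% of wide and 38.4% of minimum-width peaks (ratio 0.887, 0.773 to 1.02, Fisher's exact test, adjusted p = 0.167), and first introns made up 27.8 and 26.7% of these. Intergenic sequence held 55.6 and 54.3% (Fisher's exact test, adjusted p = 0.898). The promoter class held 1.65 and 0.640% (ratio 2.59, 1.14 to 5.88, Fisher's exact test, adjusted p = 0.097). Besides Sgsm1, 3′ UTR peaks were in Sectm1b (690 bp), Txndc9 (689 bp) and Coa5 (543 bp), and the single 5′ UTR peak, 649 bp, in Zkscan1. No member overlapped any of the 1005 microRNA hairpins of the RefSeq table. The members span only 250 kb in all, and no such count was made for other peak groups. This count of 0 therefore shows no difference between groups.

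Of the 8 shares that passed between wide and minimum-width peaks, 6 were lower shares of repeats and 2 were the higher shares at a TSS within 1 kb and at pseudogenes. The annotation named a repeat when the centre of an intronic or intergenic peak lay in one. Mouse repeats include LINE-1 (L1) elements, which copy themselves through RNA, short SINEs such as B1 (the Alu family in this annotation), B2 and B4, and endogenous retroviruses with long terminal repeats (LTRs), among them the ERVK family with the IAP elements and the older ERVL-MaLR family. Silencing of such elements by DNA methylation and H3K9 methylation is a known feature of mouse cells. A repeat was named for 125 wide peaks (29.6%) and for 42.0% of minimum-width peaks, a ratio of 0.703 (0.604 to 0.818, Fisher's exact test, adjusted p = 1.48e-05). Among intronic and intergenic peaks alone the shares were 33.0 and 45.4%.

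L1 elements were at 16 wide peaks (3.78%) and 456 minimum-width peaks (10.4%), a ratio of 0.363 (0.223 to 0.591) that passed Fisher's exact test (adjusted p = 3.16e-05). Without the bins dense in IgG peaks the L1 shares were 3.08 and 10.4%. Within the IgG list L1 elements were at 25.5% of wide and 29.9% of minimum-width peaks (ratio 0.852, 0.696 to 1.04, Fisher's exact test, adjusted p = 0.245). The difference between these ratios in the Seh1 and IgG lists was not tested. The widest L1 peaks were nearest to 6820431F20Rik (774 bp, Lx5, 180 kb away), Gm17019 (721 bp, Lx2A1, 6.96 kb away) and Adam6a (641 bp, L1Md_F3, 329 kb away). The first pair were in the dense bins. SINEs were at 20 wide peaks (4.73%) and 8.59% of minimum-width peaks, a ratio of 0.550 (0.355 to 0.853, Fisher's exact test, adjusted p = 0.0186). Of these, the Alu family made up 1.89 against 4.55% (Fisher's exact test, adjusted p = 0.0319), with its widest peaks near Zfp536 (672 bp), Stkld1 (608 bp) and Stxbp4 (547 bp). Without the dense bins the SINE and Alu shares no longer passed Fisher's exact test (adjusted p = 0.0596 and 0.0852), with ratios of 0.569 and 0.453. B4 elements were at 5 wide peaks, the widest near Ajap1 (861 bp), Rap1gap2 (590 bp) and Topaz1 (562 bp), and their share of 1.18% against 2.81% did not pass Fisher's exact test (adjusted p = 0.137).

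LTR elements as a whole were at 16.3% of wide and 17.4% of minimum-width peaks (ratio 0.938, 0.749 to 1.17, Fisher's exact test, adjusted p = 0.898). Of the LTR families tested, ERVL-MaLR alone passed, and families were not tested against each other. ERVL-MaLR elements were at 4 wide peaks (0.946%) and 5.10% of minimum-width peaks, a ratio of 0.186 (0.0694 to 0.496, Fisher's exact test, adjusted p = 8.95e-05). These 4 peaks lay in Hspa12a (819 bp), 9.38 kb upstream of Mapt (609 bp), near Fbln1 (582 bp) and near LOC100041034 (564 bp). ERVK elements were at 51 wide peaks (12.1%) and 9.23% of minimum-width peaks, a ratio of 1.31 (0.993 to 1.72) that did not pass Fisher's exact test (adjusted p = 0.154). The widest ERVK peaks were near Gm17019 (884 bp, RLTR10C), Gm20877 (850 bp, IAPEy-int) and Hnrnpd (763 bp, MMERVK10C-int). The 8 ERV1 peaks were widest near Cyp2a12 (653 bp), Zfyve9 (565 bp) and Uqcrb (561 bp). The 5 ERVL peaks were widest near Lsm14a (740 bp), Zfp644 (646 bp) and 1700024I08Rik (633 bp). RMER1 elements, which the annotation puts in the class Other, were at 10 wide peaks (2.36%) and 1.28% of minimum-width peaks (Fisher's exact test, adjusted p = 0.166). The widest were nearest to Olfr1505 (687 bp, 252 kb away) and Rapgef2 (593 bp, 1254 kb away), followed by a peak in Deptor (580 bp). Simple repeats were at 5 wide peaks, with (CTCTG)n near Cit the widest.

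**Figure D3:**
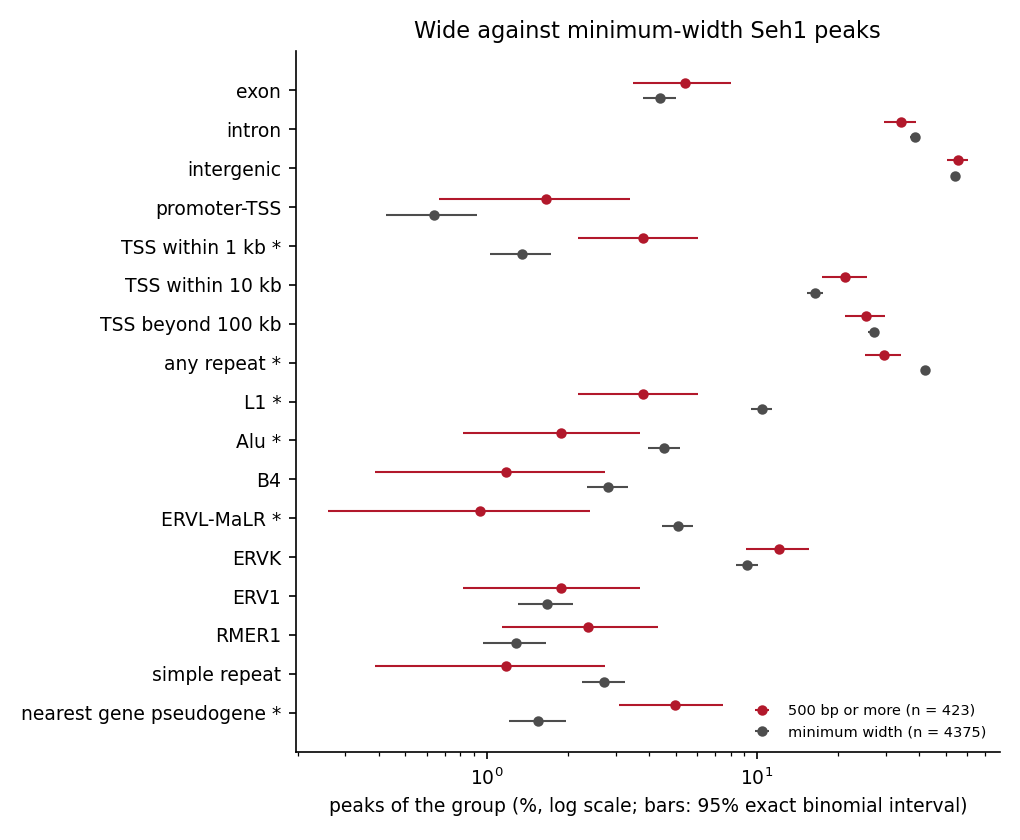
Share of peaks (x axis, %, log scale) in each class (y axis) for wide and minimum-width Seh1 peaks; points are shares, bars are 95% exact binomial intervals and an asterisk marks an adjusted p below 0.05. The wide peaks lie lower for L1 (3.78 against 10.4%) and ERVL-MaLR (0.946 against 5.10%) and higher for a TSS within 1 kb (3.78 against 1.35%).

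Across the whole range of widths the shares moved in different ways. Peaks without IgG overlap were divided into 4375 of the minimum width, 6704 of 244 to 299 bp, 3539 of 300 to 399 bp, 1018 of 400 to 499 bp and the 423 wide ones, except that the minimum-width group keeps its 6 peaks with IgG overlap. The share with any repeat was 42.0, 41.1, 37.8, 33.7 and 29.6% in that order. The L1 share lay between 9.23 and 10.8% up to 499 bp and was 3.78% from 500 bp. The ERVL-MaLR share was 5.10, 4.49, 3.96, 3.14 and 0.946%, and the ERVK share 9.23, 10.1, 9.92, 11.1 and 12.1%. The SINE share was lowest at 400 to 499 bp, with 3.24%. The share within 1 kb of a TSS was 1.35, 1.75, 2.54, 2.55 and 3.78%, whereas the exon share was lowest at the minimum width, with 4.39%, and lay between 5.44 and 5.89% above it. The steps between neighbouring widths were not tested.

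**Figure D4:**
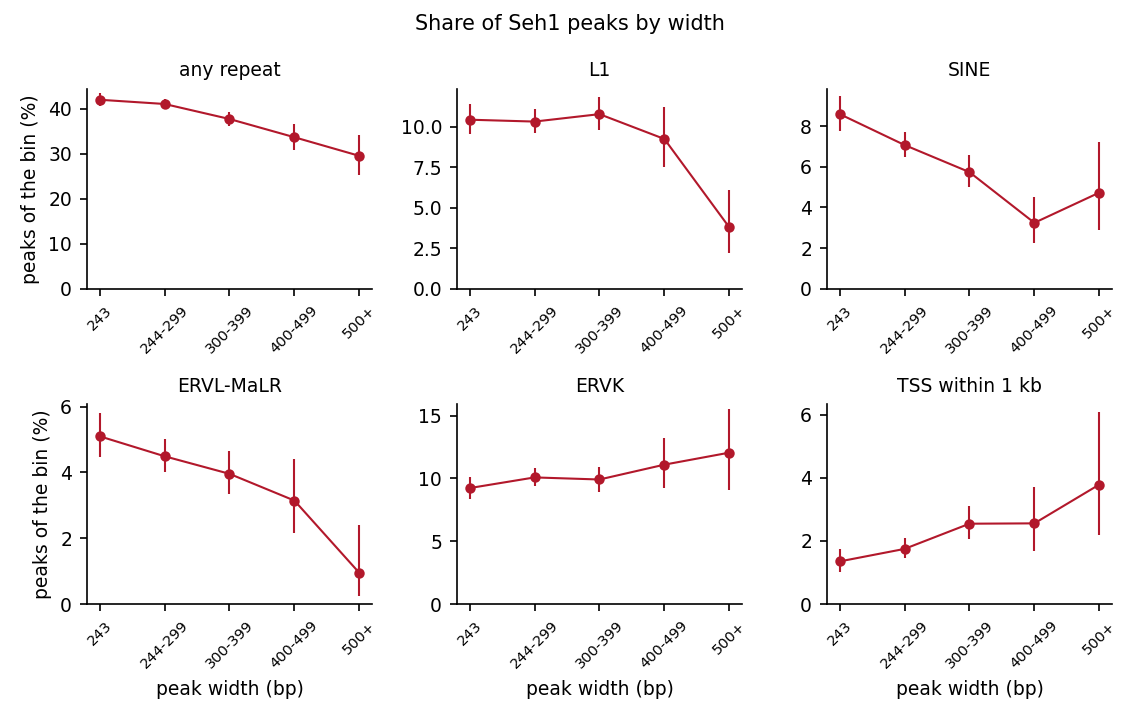
Share of Seh1 peaks (y axis, %) in 5 width bins (x axis, bp) for 6 classes; points are shares and bars 95% exact binomial intervals. The L1 share is 9.23% at 400 to 499 bp and 3.78% at 500 bp or more, while the share with any repeat is lower in each wider bin, from 42.0 to 29.6%.

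Single repeat names were picked after their values were seen, and their counts are a description without a test. RLTR10-int, the internal part of an ERVK retrovirus, was named for 110 Seh1 peaks, of which 14 were wide (12.7%, exact interval 7.14 to 20.4%). Of peaks without a repeat label 298 of 9699 (3.07%, 2.74 to 3.44%) were wide. The 14 peaks measured 516 to 740 bp, with a median of 626 bp, and 0 of them lay in a bin dense in IgG peaks. The widest lay 125 kb from the start of 1700018B24Rik (740 bp, chr3:48733934-48734673). The next was in intron 8 of 14 of F13a1, a coagulation factor gene (717 bp, chr13:36924200-36924916). The third lay 565 kb from the start of Nova1, a neuronal splicing factor gene (667 bp, chr12:46253549-46254215). Another, of 650 bp, lay 181 kb upstream of Has2, a hyaluronan synthase gene. IAPEz-int, from the IAP family, was named for 127 peaks, of which 8 were wide (6.30%, 2.76 to 12.03%), with a median of 552.5 bp. Of L1 names, 2 of 173 L1Md_F2 peaks (1.16%, 0.140 to 4.11%) and 1 of 121 L1Md_T peaks (0.826%, 0.0209 to 4.52%) were wide. Both intervals include the 3.07% of peaks without a repeat label. For L1Md_F3 the count was 1 of 30 (3.33%), and for Lx it was 0 of 180 (a count of 0 allows up to 1.67%).

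**Figure D5:**
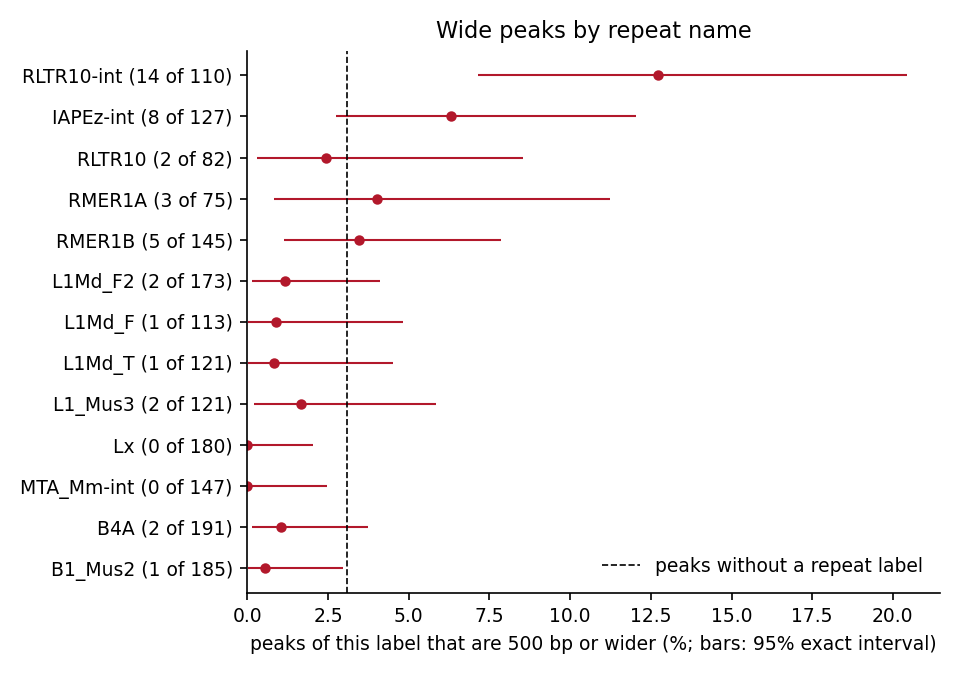
Percentage of the Seh1 peaks of each repeat name that were 500 bp or wider (x axis, %; points with 95% exact binomial intervals), with members and total peaks in the labels on the y axis; the dashed line is the 3.07% of peaks without a repeat label. RLTR10-int is at 12.7% and IAPEz-int at 6.30%.

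Nearest genes were protein-coding for 78.7% of both wide and minimum-width peaks. Pseudogenes were nearest to 21 wide peaks (4.96%) and 68 minimum-width peaks (1.55%), a ratio of 3.19 (1.98 to 5.16, Fisher's exact test, adjusted p = 0.000126). Within the IgG list the same comparison gave 15.0 and 1.68%, a ratio of 8.93 (5.83 to 13.7, Fisher's exact test, adjusted p = 3.28e-20). Without the bins dense in IgG peaks the pseudogene shares of the Seh1 groups were 2.05 and 1.41%, which did not pass Fisher's exact test (adjusted p = 0.548). Those 14 bins held 33 wide peaks (7.80%), 1.03% of minimum-width peaks and 54.6% of the IgG peaks of 500 bp or more. Of the 21 pseudogene peaks, 13 lay in them, and those outside included a peak of 610 bp in Pisd-ps1 and one of 608 bp nearest to Gm5069 in Itpkb, an inositol trisphosphate kinase gene.

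Some wide peaks lay in clusters. The bin at 20 to 21 Mb of chromosome 8 held 18 members among 104 Seh1 and 101 IgG peaks, given to 6820431F20Rik, Gm21119 and neighbouring gene models. The bin at 15 to 16 Mb of chromosome 5 held 7 members, with 57 Seh1 and 39 IgG peaks. Outside such places, 5 members lay at 58 to 59 Mb of chromosome 19, among 21 Seh1 peaks and 1 IgG peak. One of these, of 630 bp, was in intron 4 of 9 of Gfra1, the GDNF co-receptor gene, and was given to Gm10007 as nearest TSS. A further 4 members lay at 61 to 62 Mb of chromosome 9, among 19 Seh1 and 0 IgG peaks. Of these members 3 were nearest to Tle3, a Groucho-type transcriptional corepressor gene. The Tle3 peaks measured 684, 577 and 561 bp and lay 171 kb downstream, 18.7 kb upstream and 201 kb downstream of its TSS. The bin at 88 to 89 Mb of chromosome 1, with 25 Seh1 peaks, held the Ugt1a1 peak and a pair near Mroh2a (722 and 572 bp). Genes given 3 or more wide peaks were 6820431F20Rik (8 of its 37 Seh1 peaks), Gm21119 (7 of 50), Gm10007 (3 of 8), Gm17019 (3 of 11) and Tle3 (3 of 5). These bins and genes were picked for their wide peaks, which made up 2.63% of the whole Seh1 list.

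Wide peaks also had closer neighbours. The nearest other Seh1 peak was at a median of 27.4 kb from a wide peak and 40.3 kb from a minimum-width peak, and lay within 10 kb for 28.8 and 20.0%. An IgG peak lay within 10 kb of 10.2 and 3.70%. Outside the dense bins these shares were 24.1 and 19.6% for Seh1 and 4.10 and 3.07% for IgG. The IgG shares were not filtered alike: overlaps with IgG were removed from the wide group, whereas the minimum-width group kept its 6. Another wide peak lay within 100 kb of 55 members (13.0%). Of these, 29 were among the 390 members outside the dense bins, and no comparison share was taken. None of these distances was tested.

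Genes of the lists compiled for this tissue were set beside all protein-coding genes. Of 21779 protein-coding genes 1.44% were the nearest gene of a wide peak and 0.776% had one annotated to their transcript. Among 178 matched genes in 8 lists, 4 were the nearest gene and 3 the host, 5 in all. In the list of neural stem cell genes, 1 of 25 had such a peak, namely Mecom, which was placed in that list with earlier results known. In the neuronal list 1 of 22 had one, Mapt, which encodes the microtubule protein tau (chr11:104221757-104222365). Among chromatin repressors 1 of 26 had one, Cbx2, a subunit of Polycomb repressive complex 1, with 551 bp 5.44 kb upstream of its TSS (chr11:119017304-119017854). Of 28 nuclear pore and GATOR2 genes 1 had one, Ranbp2. Of 18 genes of microglia, endothelium and fibroblasts 1 had one, Cx3cr1, the microglial fractalkine receptor gene, with 595 bp in its intron (chr9:120057102-120057696) and an IgG peak 5.69 kb away. Lists of p53 targets and CDK inhibitors (21 genes), cell cycle genes (20) and glial genes (18) had 0. The more numerous minimum-width peaks were nearest to 6, 3 and 5 of them, beside 12.7% of all protein-coding genes. Beside the backgrounds of 1.44 and 0.776%, these counts of 0 or 1 per list single out no list.

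The IgG list shows what wide peaks of a control look like, with all 306 of its peaks of 500 bp or more taken. Of 32 shares, 5 were higher and 7 lower among wide Seh1 than among wide IgG peaks by Fisher's exact test with adjustment. L1 elements were at 3.78% of wide Seh1 and 25.5% of wide IgG peaks, a ratio of 0.148 (0.0885 to 0.249, Fisher's exact test, adjusted p = 1.22e-16). Satellite repeats were at 0 of 423 wide Seh1 peaks (upper limit 0.709%) and at 19 wide IgG peaks (6.21%, Fisher's exact test, adjusted p = 5.25e-07). ERVK elements were at 12.1 and 5.88% (ratio 2.05, 1.22 to 3.44, Fisher's exact test, adjusted p = 0.0138), and RMER1 elements at 10 and 0 peaks (Fisher's exact test, adjusted p = 0.0174). Introns held 34.0 and 23.2% (Fisher's exact test, adjusted p = 0.00618). Pseudogenes were nearest to 4.96 and 15.0% (Fisher's exact test, adjusted p = 4.09e-05). Exons held 5.44 and 2.61% (ratio 2.08, 0.943 to 4.59) and a TSS lay within 1 kb of 3.78 and 1.96% (ratio 1.93, 0.764 to 4.87), neither of which passed Fisher's exact test (adjusted p = 0.140 and 0.359).

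Outside the bins dense in IgG peaks 390 wide Seh1 and 139 wide IgG peaks remained, and 4 shares passed. L1 elements were then at 3.08 and 30.2%, LINEs as a class at 3.33 and 30.9% (Fisher's exact test, adjusted p = 8.70e-16 for each), any repeat at 29.0 and 55.4% (adjusted p = 6.42e-07) and simple repeats at 1.28 and 7.91% (adjusted p = 0.00295). The ERVK shares were 12.1 and 7.91% (Fisher's exact test, adjusted p = 0.424), and the pseudogene shares 2.05 and 2.16% (adjusted p = 1). Satellite repeats were then at 0 of 390 wide Seh1 and 3 of 139 wide IgG peaks (2.16%), which did not pass Fisher's exact test (adjusted p = 0.0952). These comparisons set 1 list beside another, since the libraries have no replicates, and a difference between the lists cannot be told apart from a difference between single libraries.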

How the data were processed

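ChIP-seq peak lists of 1 Seh1 and 1 IgG library were analysed. The authors annotated their peaks with HOMER annotatePeaks.pl against mm10, per the file headers, and the peak names there pair each library with the input. The submitters' processing notes give Bowtie2 and HOMER, with no version, and the builds hg18 and hg38; coordinates here follow the mm10 of the headers. For the peak caller and its threshold, read filters and depth: not given in the sources used here. A score of 0 was deposited for every peak, so scores were not used. Of the other deposited values, positions, annotation class, repeat name and signed distance from the peak centre to the nearest transcription start site were used. The nearest gene of each peak and its type, such as pseudogene, were deposited values as well.

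Width was end minus start plus 1 in 1-based coordinates. Peaks overlapped when they shared 1 bp or more. The members and gene lists were chosen with earlier results of these data known. Members named singly are the 20 widest, all within 1 kb of a start site, the 10 widest in an exon, the 3 widest of each of the 6 most frequent repeat families (3 families tied for the last place), those at list genes, genes with 3 or more members and peaks at the threshold width. Further members were named after their values were seen. Some members that fall under this rule are not reported here.

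Shares were compared by Fisher's exact test (two-sided), adjusted by the Benjamini-Hochberg method over the 32 shares of each pair of peak groups, with a threshold of 0.05. Shares have 95% exact (Clopper-Pearson) intervals, ratios 95% intervals on the log scale, and a count of 0 a limit of 3 counts; all cover counting error only. The test was tried on simulated data. Symbols of host transcripts, the protein-coding genes of the list counts and promoter windows came from RefSeq (GRCm38.p6, the assembly of mm10). Before protein-coding genes were counted, 394 genes listed below 3 Mb, where patch coordinates occur, were removed. Python 3.11.15, pandas 2.3.3, NumPy 2.4.6, SciPy 1.17.1, Biopython 1.88 and matplotlib 3.10.9 were used. Alternatives covered the width minimum, the comparison group, IgG exclusion, dense bins, 1 peak per gene, autosomes, repeat denominators and the distance to a start site.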

Additional observations from a re-analysis of the deposited data

How the results depend on the processing

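No paired analysis was possible because each group had 1 library. The alternatives changed 1 choice at a time, and values are ratios of the wide to the narrow share unless stated. With peaks of 400 bp or more (1441 peaks) the ERVK ratio was 1.23 and passed (Fisher's exact test, adjusted p = 0.0496), as did B4 (0.370), TSS within 10 kb (1.25) and TSS beyond 100 kb (0.812). L1 (0.732), LINE (0.756) and ERVL-MaLR (0.490) still passed but moved closer to 1. The 3′ UTR (0.867), low-complexity (1.04), ERV1 (0.665) and X chromosome (1.15) ratios changed side without passing. With 600 bp or more (129 peaks) the intron ratio of 0.586 passed (Fisher's exact test, adjusted p = 0.00329), and any repeat (0.756), LINE (0.361), L1 (0.372), SINE (0.541), Alu (0.341), ERVL-MaLR (0.304) and TSS within 1 kb (2.87) no longer did; fewer peaks were tested. The pseudogene ratio there was 5.98 and passed. There LTR (1.20), TTS (0.807), non-coding exon (1.78), RMER1 (0.606), ERV1 (0.465), ERVL (1.67), B2 (1.70), TSS beyond 100 kb (1.00) and protein-coding nearest gene (0.936) changed side without passing. Against all narrower peaks SINE (0.680), Alu (0.596) and TSS within 1 kb (2.02) did not pass, and DNA transposon (1.09), TSS beyond 100 kb (1.01) and protein-coding (0.996) changed side. Without dense bins SINE (0.569), Alu (0.453) and TSS within 1 kb (2.38) did not pass. TSS within 10 kb passed with IgG overlaps kept, without peaks that have an IgG peak within 1 kb, and on autosomes alone (1.30, 1.30 and 1.31). Protein-coding was 0.985 with IgG overlaps kept, and TSS beyond 100 kb was 1.08 with 1 peak per gene. The pseudogene ratio did not pass without dense bins (1.46) or with 1 peak per gene (2.09). The number of the 32 shares that differed from wide IgG peaks, 12 in the report, was 2 with 600 bp or more, 4 without dense bins and 4 with 1 peak per gene. Fewer peaks were tested in each, and shares changed as well. The pseudogene shares of wide Seh1 and wide IgG peaks were 4.96 and 15.0% in the report, and 2.05 and 2.16% without dense bins. Why the number fell was not tested. Where nothing else is said, the cause was not tested. Depth is unknown, so its effect on width could not be measured.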

Other observations

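The 16 Seh1 peaks of 500 bp or more that overlapped an IgG peak were not among the 423. They measured 530 to 2002 bp with a median of 674 bp, and 12 of them lay in the bins dense in IgG peaks. The widest, 2002 bp (chr5:15680018-15682019), lay in an intron of Speer4cos, and 7 of the 16 were on chromosome 8, near 6820431F20Rik and Gm21119. One lay on the mitochondrial genome (606 bp).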
